A study of Salmo salar with 9 samples.

Results

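Head kidney RNA of 6 Atlantic salmon fed a diet with seaweed was compared with that of 3 salmon fed the fishmeal control diet (FMC), which took in all 9 fish of the series. Of the 6 seaweed-fed fish, 3 had received a diet with 10% Laminaria digitata, a brown seaweed (SW1), and 3 a diet with 10% Oceanfeed, a commercial blend of seaweeds (SW2). In both diets the seaweed took the place of plant ingredients and filler, while FMC held 0% seaweed. The feeds were given for 42 days, after which 1 fish from each tank received lipopolysaccharide (LPS) of Escherichia coli into the body cavity at 6 mg per kg, and its head kidney was taken 68 to 70 h afterwards. Every fish, FMC included, therefore carried the LPS challenge, and a response to seaweed in unchallenged fish cannot be read from these data. With 1 fish per tank, the variation between fish and that between tanks cannot be told apart, and p-values measure the spread between these 9 fish. The question was what a diet with either seaweed product shared against FMC, so the contrast was the mean of SW1 and SW2 minus FMC, and contigs were looked for in which all 6 seaweed-fed fish lay on the same side of all 3 FMC fish.

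The head kidney of a bony fish does the work that bone marrow and adrenal gland share in mammals. It makes blood cells, houses macrophages, B cells and other leukocytes, and holds the interrenal cells, which make cortisol from cholesterol, and the chromaffin cells, which make adrenaline. Cortisol acts through the glucocorticoid receptor, and in mammals a small set of genes, among them FKBP5, KLF9, TSC22D3, DDIT4 and SGK1, rises in most tissues when that receptor is active. In mammals glucocorticoids also reset the circadian clock of peripheral tissues, in which cryptochromes and the REV-ERB receptors repress clock transcription.

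Counts per fish were 2158027 to 3203677 on the NCBI reference, a set of S. salar cDNA sequences, and 8259299 to 12228633 on the de novo reference, contigs assembled from these same reads. The references are therefore views of the same libraries and not independent of each other, and several contigs can be pieces of 1 transcript or near-identical copies of a duplicated gene. Principal component 1 (29.1% of the variance on the NCBI and 32.7% on the de novo reference) set FMC fish 2 and SW1 fish 1 off from the rest. Both had low summed levels of contigs for folding in the endoplasmic reticulum, 0.315% and 0.298% of the scaled de novo library against at least 0.606% in the other fish. These fish were also the lowest in other lists, among them DNA replication and cell division (0.568% and 0.499%). The same held for antigen processing and the proteasome (0.543% and 0.417%) and for B cells and immunoglobulin (0.599% and 0.524%). Markers of erythroid cells, B cells, macrophages, neutrophils and interrenal cells were all counted, as the labelled tissue holds these cells, while chromaffin markers were near 0 (0.000141% to 0.00133% of the scaled de novo library). Levels are given as counts per 1000000 counts of the scaled library (CPM), and differences as log2 fold changes, on which seaweed minus FMC is positive when the seaweed-fed fish were higher.

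Contigs apart in this sense were few. On the NCBI reference 325 of 23805 contigs tested (1.37%) had the 6 seaweed-fed fish all above or all below the 3 FMC fish, 207 of them above (0.87%) and 118 below (0.496%). On the de novo reference there were 1206 of 87598 (1.38%), 664 above (0.758%) and 542 below (0.619%). Random ordering of 3 and 6 fish would alone put a larger share of untied contigs apart than was seen on either reference. Being apart is therefore not by itself evidence of a diet effect, here or for any contig named below. The split between above and below moved with the scaling of the libraries: with total counts alone it was 129 above and 161 below on the NCBI reference and 448 and 588 on the de novo reference. Where 3 or more fish reached 10 counts, 217 of 17495 contigs were apart on the NCBI reference (1.24%, with 0.783% above and 0.457% below) and 747 of 63906 on the de novo reference (1.17%, with 0.651% above and 0.518% below). The median difference of these contigs, for those above, was 0.70 and 0.77 on the log2 scale (NCBI and de novo) and that of those below was 0.63 and 0.64 in size. A difference of 1 or more was met by 46 of 137 above and 10 of 80 below on the NCBI reference, and by 130 of 416 above and 48 of 331 below on the de novo reference.

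No contig passed an adjusted p of 0.05 in edgeR's quasi-likelihood test on either reference (lowest Benjamini-Hochberg adjusted p 0.288 on the NCBI and 0.169 on the de novo reference). An unadjusted p under 0.05, called the unadjusted 0.05 level from here on, was reached by 786 contigs on the NCBI reference (3.3%, of all tested 1.52% higher and 1.78% lower) and by 2952 on the de novo reference (3.37%, 1.39% higher and 1.98% lower). Both shares, 3.3% and 3.37%, were under the 0.05 that is met on average when no contig differs. Contigs both apart and at the unadjusted 0.05 level were 0.861% of those tested on the NCBI and 0.8% on the de novo reference. DESeq2 called 16 contigs (0.0672%) on the NCBI reference, 14 higher and 2 lower, and 21 (0.024%) on the de novo reference, 18 higher and 3 lower. Named contigs are therefore described by their values in each fish, with DESeq2 calls given beside them. The 95% interval of a log2 fold change comes from the edgeR fit and is not adjusted for the number of contigs tested, so 1 that leaves out 0 is not a call. A named contig does not stand for its gene. Of the 64 named contigs that were apart, 58 had other tested contigs of the same name on either reference. For 23 of these 58 all the others lay on the contig's side of 0, and for 4 none did. Another contig of the name was apart on the same side for 18 of them. Names were matched as written, so contigs of a gene under another spelling were not counted.

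The contigs of FKBP5, a co-chaperone that in mammals binds the HSP90 complex of the glucocorticoid receptor and is itself switched on by it, stood out in that 5 were called by DESeq2. The de novo reference held 8 contigs described as FKBP5. These may be pieces of 1 transcript or near-identical copies, so they do not count as separate results. In 6 of them all seaweed-fed fish lay above all FMC fish, and the other 2, with few counts, had log2 fold changes of 0.54 and -0.92. Contig 28368 had 9.47, 5.55 and 9.53 CPM (FMC), 26.8, 23.9 and 33.4 CPM (SW1) and 49.1, 28.3 and 25.4 CPM (SW2). The groups did not overlap, and the lowest seaweed-fed fish, SW1 fish 2, stood well above the highest FMC fish. Like contigs 4922 and 4943 below, contig 28368 was named for a low p. The lack of overlap in them therefore follows in part from the selection. The mean was 8.18 ± 2.28 CPM (SD, n = 3) in FMC and 31.1 ± 9.37 CPM (SD, n = 6) in the seaweed-fed fish, a 3.78-fold difference (log2 fold change 1.92, SE 0.30, unadjusted p = 1.73e-05, Benjamini-Hochberg adjusted p = 0.237 in edgeR, DESeq2 adjusted p = 6.02e-06).

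Contig 4922, the FKBP5 contig with the most counts, had 32.8, 13.1 and 28.7 CPM (FMC), 98.03, 92.2 and 105 CPM (SW1) and 183, 106 and 82.6 CPM (SW2). SW2 fish 1 was highest and FMC fish 2 lowest, and the lowest seaweed-fed fish, SW2 fish 3, was at 82.6 CPM against 32.8 in the highest FMC fish. Its difference was 2.15 (SE 0.35) with an adjusted edgeR p of 0.237 and a DESeq2 adjusted p of 2.01e-06. Contig 4943 had 10.5, 4.16 and 9.76 CPM (FMC), 32.3, 26.7 and 30.5 CPM (SW1) and 57.1, 33.8 and 28.2 CPM (SW2), also with SW2 fish 1 highest and FMC fish 2 lowest (log2 fold change 2.07, SE 0.34, unadjusted p = 2.44e-05, Benjamini-Hochberg adjusted p = 0.237 in edgeR, DESeq2 adjusted p = 6.02e-06). The remaining contigs were added after their values were seen or came in through their low FMC counts. Contigs 21494 and 51851 differed by 1.93 (SE 0.38) and 1.61 (SE 0.33), with DESeq2 adjusted p of 0.00477 and 0.0301. Contig 66444 had 0, 1 and 2 counts (FMC), 16, 10 and 19 counts (SW1) and 15, 9 and 21 counts (SW2), 3 against 90 in all, a ratio of 14.2 with a 95% counting interval of 4.71 to 70.2 (exact binomial). Leaving out any 1 fish kept contig 28368 at 1.70 to 2.04, contig 4922 at 1.84 to 2.40 and contig 4943 at 1.77 to 2.30, and without both FMC fish 2 and SW1 fish 1 they were at 1.73, 1.85 and 1.74. Counts summed over the contigs of that protein name gave 2.06 (SE 0.32), again short of the threshold after adjustment over 12000 names (adjusted p = 0.629 in edgeR).

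**Figure D1:**
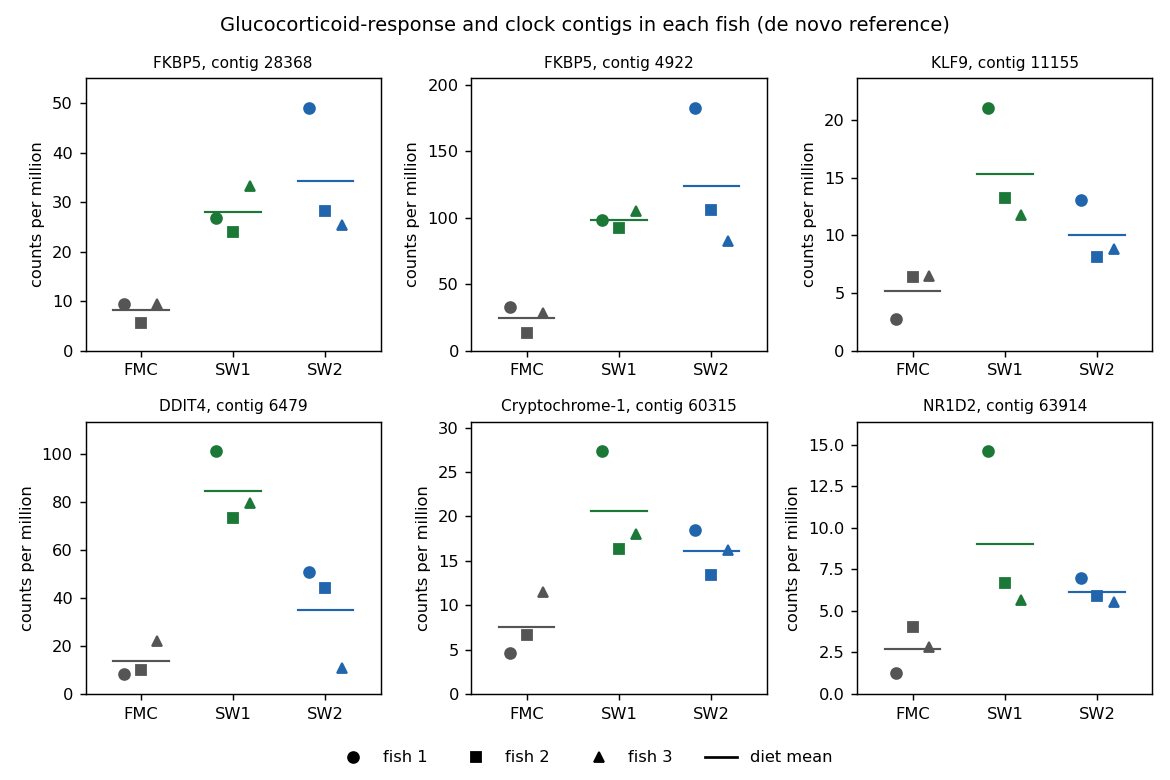
Level in CPM (y axis, linear, from 0) of 6 de novo contigs in each fish, by diet (x axis); symbols mark fish 1, 2 and 3 and lines the diet mean. All 6 seaweed-fed fish lie above all 3 FMC fish in both FKBP5 panels and in those of KLF9 and cryptochrome-1, while SW2 fish 3 (10.7 CPM) falls among the FMC fish for DDIT4.

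Other genes known from mammals as targets of the glucocorticoid receptor had contigs with higher mean levels, with more overlap. KLF9, a transcription factor of the Krueppel family, had 2.74, 6.36 and 6.51 CPM (FMC), 21.1, 13.2 and 11.8 CPM (SW1) and 13.1, 8.10 and 8.83 CPM (SW2) in contig 11155. The 6 seaweed-fed fish were all above the FMC fish, SW2 fish 2 by the least, and the difference was 1.27 (95% interval 0.56 to 1.97). The other 2 KLF9 contigs lay at 0.20 and 0.41. DDIT4, an inhibitor of the growth kinase mTORC1, had 8.31, 10.2 and 22.2 CPM (FMC), 102, 73.3 and 79.5 CPM (SW1) and 50.8, 44.3 and 10.7 CPM (SW2) in its only contig. SW2 fish 3 lay below FMC fish 3, so the groups overlapped, and the difference was 2.01 (95% interval 1.03 to 2.99). It passed in DESeq2 (adjusted p = 0.0114) and is named after its values were seen.

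Sgk1, a kinase that activates sodium channels and transporters, had 21.9, 25.0 and 27.1 CPM (FMC), 76.6, 29.3 and 45.1 CPM (SW1) and 57.7, 36.9 and 52.6 CPM (SW2) in 1 of its 2 NCBI contigs, with all seaweed-fed fish above FMC (log2 fold change 1.01, 95% interval 0.34 to 1.69). On the de novo reference 3 of 4 Sgk1 contigs were above 0, contig 56069 at 1.34 (95% interval 0.45 to 2.23) and contig 23178 at 1.08 (95% interval 0.27 to 1.89). TSC22D3, the glucocorticoid-induced leucine zipper, had 178, 489 and 390.0 CPM (FMC), 1498, 640.4 and 530.0 CPM (SW1) and 532, 621 and 367 CPM (SW2) on the NCBI reference. SW1 fish 1 stood far above all others and SW2 fish 3 lay below FMC fish 2 and 3. The difference was 0.93 (95% interval 0.05 to 1.81), and 0.61 without SW1 fish 1. Its 4 de novo contigs went both ways, 2 above and 2 below 0, with a median of -0.045 and a lowest value of -0.34. The receptor itself gave no such difference: its NCBI contig differed by -0.14 (95% interval -0.72 to 0.44) and its 10 de novo contigs had a median of -0.13, with 0 of them at the unadjusted 0.05 level.

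Over the whole glucocorticoid-response list, 30 of 45 de novo contigs had a log2 fold change above 0, against 47.9% of all contigs tested. At the unadjusted 0.05 level, 11 were higher and 1 lower (1.39% and 1.98% of all contigs), and 6 were apart (1.38% of all), all above and all of them contigs of FKBP5 or KLF9. These counts repeat values given above, since contigs of FKBP5, KLF9 and DDIT4 are among the 11 higher. The list was also chosen with earlier results of these data known. Its median was 0.27, against -0.02 over all contigs. The summed level of the list was 0.029% to 0.0384% of the scaled library in the FMC fish and 0.0481% to 0.0739% in the seaweed-fed fish, with no overlap. On the NCBI reference, where the list held 4 contigs, the groups overlapped, at 0.0268% to 0.064% and 0.0514% to 0.179%. They also overlapped on the de novo reference once the list's 7 FKBP5 contigs were left out, a choice made after the values were seen, at 0.0229% to 0.0354% in FMC and 0.032% to 0.0553% with seaweed. In whole tissue, fewer cells of a type and less RNA per cell cannot be told apart, here or in any list that follows.

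Among the clock genes, cryptochrome-1 and REV-ERB-beta had some contigs apart and REV-ERB-alpha had none apart, and the period proteins, ARNTL1 and CLOCK had none at the unadjusted 0.05 level. Cryptochrome-1, a light-receptor relative that represses CLOCK and ARNTL1, had 19.2, 36.3 and 32.99 CPM (FMC), 131, 49.99 and 70.4 CPM (SW1) and 77.7, 54.3 and 70.1 CPM (SW2) in 1 of its 3 NCBI contigs. SW1 fish 1 was highest, SW1 fish 2 was the lowest of the seaweed-fed fish, and all 6 were above FMC (log2 fold change 1.35, SE 0.34, unadjusted p = 0.00206, Benjamini-Hochberg adjusted p = 1 in edgeR). Without SW1 fish 1 the difference was 1.09. On the de novo reference, contig 60315 had 4.65, 6.59 and 11.4 CPM (FMC), 27.4, 16.3 and 18.03 CPM (SW1) and 18.5, 13.4 and 16.3 CPM (SW2) and differed by 1.27 (95% interval 0.61 to 1.93). Contig 56795 differed by 1.47 (95% interval 0.65 to 2.29), and the other 8 cryptochrome-1 contigs were not apart, the lowest at -0.61.

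NR1D2 (REV-ERB-beta), a nuclear receptor that represses ARNTL1, was apart in 2 of 7 contigs. Contig 63914 had 1.25, 4.05 and 2.80 CPM (FMC), 14.6, 6.68 and 5.66 CPM (SW1) and 6.95, 5.86 and 5.52 CPM (SW2), with SW1 fish 1 far above the rest, and differed by 1.49 (95% interval 0.64 to 2.33). Contig 48955 had few counts, 2, 1 and 2 counts (FMC), 10, 8 and 13 counts (SW1) and 5, 7 and 15 counts (SW2), and differed by 2.39 (95% interval 1.14 to 3.64). All 4 contigs of NR1D1 (REV-ERB-alpha) lay above 0, with a median of 0.90, and contigs 73137 and 83433 differed by 0.99 (95% interval 0.03 to 1.96) and 1.04 (95% interval 0.02 to 2.06). The period proteins, which repress the clock together with cryptochromes, gave 0 contigs apart, among 4 of period 1 (median 0.22) and 3 of period 2 (median 0.39). The activators were measured in 6 contigs of ARNTL1 (median 0.27) and 3 of CLOCK (median -0.33). Differences between clock genes were not tested. Over the circadian list, 48 of 85 de novo contigs were above 0, 10 were higher and 0 lower at the unadjusted 0.05 level (1.39% and 1.98% of all contigs tested), and 9 were apart, all above (0.758% of all). Cryptochrome-1 and NR1D2 gave 2 each of these 9, and the rest belong to descriptions not named here. The median of the list, 0.10, was close to that of all contigs. All fish were kept under the same light cycle, and the hour of day at which each was sampled is not given in the sources used here.

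Some contigs of the enzymes that make cortisol were higher on average in the seaweed-fed fish. P450scc (CYP11A1), which cuts the side chain of cholesterol in the first step, had 1.37, 3.88 and 4.18 CPM (FMC), 6.34, 10.4 and 14.3 CPM (SW1) and 20.1, 11.3 and 25.5 CPM (SW2) on the NCBI reference. Every seaweed-fed fish was above every FMC fish, and the lowest, SW1 fish 1, was at 6.34 CPM against 4.18 in the highest FMC fish. The difference was 2.17 (SE 0.45), with an adjusted p of 1 in edgeR and 0.043 in DESeq2. On the de novo reference contig 72389 was apart as well (log2 fold change 1.73, 95% interval 0.77 to 2.69), contigs 16700 and 35509 differed by 1.32 (SE 0.38) and 1.101 (SE 0.39) with overlap, and the other 3 contigs of that name lay between -0.36 and 0.01.

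CYP17A1, which adds the 17-alpha hydroxyl group needed for cortisol, had 25.9, 55.8 and 87.0 CPM (FMC), 51.8, 81.8 and 149 CPM (SW1) and 135, 129 and 231 CPM (SW2). SW1 fish 1 and SW1 fish 2 lay within the range of the FMC fish, and the difference was 1.15 (95% interval 0.28 to 2.02). StAR, which carries cholesterol into the mitochondrion, had 454, 1820.3 and 825 CPM (FMC), 1139, 1551 and 1750.1 CPM (SW1) and 2271, 1577 and 3245 CPM (SW2) on the NCBI reference. FMC fish 2 was above all 3 SW1 fish, and the difference of 0.86 (95% interval -0.03 to 1.74) was 1.53 without FMC fish 2. Cytochrome P450 11B was measured in 4 de novo contigs between -0.38 and 0.85 (median 0.24). None of them was apart or at the unadjusted 0.05 level. Of the 26 de novo contigs of the interrenal list, 21 were above 0, 7 were higher and 0 lower at the unadjusted 0.05 level and 1 was apart, with a median of 0.60, against 47.9% above 0, 1.39% higher, 1.98% lower and 1.38% apart among all contigs tested. The median was 1.14 without FMC fish 2, 0.24 without FMC fish 1 and 1.29 without both FMC fish 2 and SW1 fish 1. The summed level was 0.0676% to 0.304% of the scaled library in the FMC fish and 0.153% to 0.487% in the seaweed-fed fish, which overlapped: FMC fish 2 was above 4 seaweed-fed fish, and FMC fish 3 and SW1 fish 1 were at the same level of 0.153%. On the NCBI reference, where the list held 4 contigs, the groups overlapped as well, at 0.0505% to 0.188% in FMC and 0.119% to 0.333% with seaweed. How much of this is a larger share of interrenal tissue in the piece taken was not tested.

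**Figure D2:**
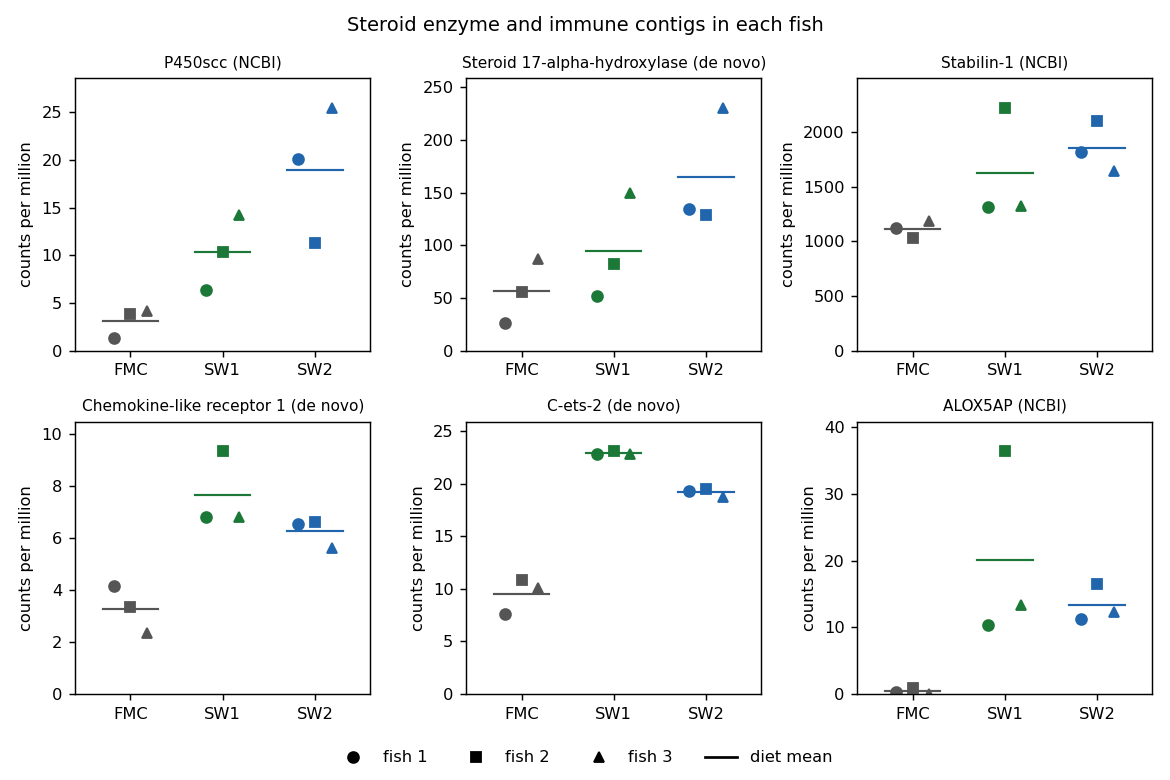
Level in CPM (y axis, linear, from 0) of 6 contigs in each fish, by diet (x axis); symbols mark fish 1, 2 and 3 and lines the diet mean. P450scc, stabilin-1, chemokine-like receptor 1, C-ets-2 and ALOX5AP have every seaweed-fed fish above every FMC fish, and steroid 17-alpha-hydroxylase does not.

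Scavenger and lectin receptors of macrophages had contigs with higher mean levels in the seaweed-fed fish. Stabilin-1, an endocytic receptor of macrophages and sinus endothelium, had 1123, 1035 and 1191 CPM (FMC), 1312, 2223 and 1327 CPM (SW1) and 1814, 2101 and 1647 CPM (SW2) on the NCBI reference. The 3 FMC fish lay close together and all 6 seaweed-fed fish above them (log2 fold change 0.63, 95% interval 0.12 to 1.15). The single de novo contig of that name was at 0.47. It was not apart and did not reach the unadjusted 0.05 level in edgeR, so the references differed on stabilin-1. Macrophage mannose receptor 1, which binds mannose on microbes, was apart on the NCBI reference with 3075 to 5055 CPM in FMC and 5125 to 7022 CPM with seaweed (log2 fold change 0.51, 95% interval 0.01 to 1.01), and all 5 of its de novo contigs lay above 0 (median 0.55). Contig 27064 of this receptor, which the rule named, differed by 0.67 (SE 0.26) with values of 3.35 to 4.26 CPM in FMC and 3.92 to 10.7 CPM with seaweed, which overlapped. It was 0.17 in SW1 vs. FMC and 1.16 in SW2 vs. FMC.

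CLEC4E (Mincle), a C-type lectin that in mammals senses mycobacterial glycolipids and damaged cells, was apart in contig 19199 (log2 fold change 0.94, 95% interval 0.31 to 1.58). This contig had 6.48, 5.66 and 7.29 CPM (FMC), 8.24, 18.4 and 9.06 CPM (SW1) and 11.3, 16.5 and 11.6 CPM (SW2). The other 8 de novo contigs of that name lay between -1.03 and 0.78, 6 of them above 0 and 0 apart above FMC. Its 3 NCBI contigs lay between -0.10 and 0.39, 1 of them above 0. The scavenger receptor M130, known in mammals as CD163, had 53.0, 29.6 and 14.5 CPM (FMC), 15.03, 61.9 and 57.6 CPM (SW1) and 125, 123.4 and 119 CPM (SW2) in contig 4422, and its other 3 de novo contigs lay between -0.17 and 0.06. SW1 fish 1 lay below FMC fish 1 and 2 while the 3 SW2 fish lay far above FMC, and the mean difference was 1.19 (SE 0.44). Of the 78 de novo contigs of the macrophage list, 52 were above 0, 5 were higher and 1 lower at the unadjusted 0.05 level, and 4 were apart above and 1 below, with a median of 0.07. The shares of all de novo contigs tested were 47.9% above 0, 1.39% higher, 1.98% lower, 0.758% apart above and 0.619% apart below. On the NCBI reference, where 50% of all contigs tested were above 0, 10 of 14 of the list were, 4 were higher and 0 lower, 2 were apart and the median was 0.31. Among all contigs tested there, 1.52% were higher, 1.78% lower and 1.37% apart. The summed level was 0.468% to 0.507% of the scaled de novo library in the FMC fish and 0.501% to 0.752% in the seaweed-fed fish, where SW1 fish 3 alone lay under the highest FMC fish. On the NCBI reference the summed levels did not overlap, at 0.624% to 0.928% in FMC and 0.949% to 1.4% with seaweed.

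Receptors and ligands that guide leukocytes followed. Chemokine-like receptor 1, the receptor of chemerin, had 4.15, 3.35 and 2.36 CPM (FMC), 6.80, 9.36 and 6.79 CPM (SW1) and 6.54, 6.61 and 5.62 CPM (SW2) in contig 44827, with no overlap (log2 fold change 1.06, SE 0.26, unadjusted p = 0.00128, Benjamini-Hochberg adjusted p = 1 in edgeR). Contig 30271 of this receptor had 39.3 to 57.3 CPM in FMC and 59.6 to 93.0 CPM with seaweed, also apart (log2 fold change 0.66, 95% interval 0.14 to 1.17), and all 5 of its contigs were above 0 (median 0.55). LECT2, a secreted protein that attracts neutrophils, had 195, 198 and 182 CPM (FMC), 207, 496 and 335 CPM (SW1) and 310.4, 742 and 294 CPM (SW2). The FMC fish lay close together and all seaweed-fed fish were above them, SW1 fish 1 only just and SW2 fish 2 far above (log2 fold change 1.04, 95% interval 0.29 to 1.79). Of the 67 de novo contigs for chemokines and their receptors, 44 were above 0, 8 were higher and 1 lower at the unadjusted 0.05 level, and 3 were apart above and 1 below (median 0.11). Among all contigs tested, 47.9% were above 0, 1.39% higher, 1.98% lower, 0.758% apart above and 0.619% apart below.

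Contigs for perforin-1, the pore-forming protein of cytotoxic cells, had higher mean levels. Contig 1553 had 22.3, 30.6 and 26.9 CPM (FMC), 77.6, 34.8 and 62.3 CPM (SW1) and 32.2, 45.5 and 42.4 CPM (SW2) and was apart (log2 fold change 0.86, 95% interval 0.27 to 1.45), and contig 15544 had 6.48 to 13.1 CPM in FMC and 10.8 to 33.8 CPM with seaweed, with overlap (log2 fold change 1.08, 95% interval 0.38 to 1.78). In both, SW1 fish 1 was highest. Of 37 de novo contigs for cytotoxic cells, 30 were above 0 and 4 were higher and 0 lower at the unadjusted 0.05 level, with a median of 0.35 that was 0.62 without FMC fish 2. VCAM-1, which holds leukocytes to the vessel wall, was apart in contig 14567, with 3.48 to 5.73 CPM in FMC and 6.55 to 13.2 CPM with seaweed (log2 fold change 0.98, 95% interval 0.35 to 1.62), and all 4 of its de novo contigs were above 0 (median 0.94). Of its 2 NCBI contigs, the higher, added after its values were seen, differed by 1.08 (95% interval 0.35 to 1.82) and the other by 0.43. For adhesion and matrix, 185 of 282 de novo contigs were above 0, 14 were higher and 4 lower, and 4 were apart above and 2 below (median 0.15). Beside this list and that of cytotoxic cells, all de novo contigs tested had 47.9% above 0, 1.39% higher, 1.98% lower, 0.758% apart above and 0.619% apart below.

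The adapter of 5-lipoxygenase gave the lowest edgeR p of the NCBI reference, and the references differed on it. ALOX5AP, which hands arachidonic acid to 5-lipoxygenase for leukotriene synthesis, had 1, 2 and 0 counts (FMC), 36, 81 and 40 counts (SW1) and 27, 38 and 31 counts (SW2) in its NCBI contig. This was 3 counts in the FMC fish against 253, a ratio of 40.5 with a 95% counting interval of 13.7 to 198 (exact binomial), and every seaweed-fed fish was far above every FMC fish. That interval covers counting error only, not the spread between fish. The contig was named for being apart and for its low FMC counts, so the ratio and the lack of overlap follow in part from the selection. The edgeR p was 1.21e-05 before and 0.288 after adjustment, and DESeq2 gave an adjusted p of 0.000147. The de novo contig of the same name had 734, 637 and 533 counts (FMC), 753, 654 and 677 counts (SW1) and 489, 636 and 656 counts (SW2), and differed by -0.03 (95% interval -0.53 to 0.48). The groups overlapped there throughout, and which copy or allele the NCBI contig matches was not tested. NDUFB6, a subunit of respiratory complex I, had 0, 0 and 0 counts (FMC), 4, 8 and 9 counts (SW1) and 11, 15 and 12 counts (SW2) in 1 NCBI contig. Against a floor of 3 counts over the FMC fish this was at least 9.44-fold higher (DESeq2 adjusted p = 0.0359), in a contig that also meets the rule for low FMC counts. Summed over the 10 NCBI contigs of that name, FMC fish 2 had 6 counts and SW1 fish 1 had 4, so the groups overlapped.

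C-ets-2, a transcription factor of the ETS family, had 7.56, 10.9 and 10.1 CPM (FMC), 22.8, 23.1 and 22.8 CPM (SW1) and 19.3, 19.5 and 18.8 CPM (SW2) in contig 47770. The 3 FMC fish and the 6 seaweed-fed fish formed tight, separate groups. This contig was named for being apart with a low p, so that separation follows in part from the selection. The difference was 1.14 (SE 0.22) with an adjusted p of 0.84 in edgeR and 0.00918 in DESeq2. Contigs 17823 and 26688 of the same name, added after their values were seen, were apart too (log2 fold changes 1.15 and 0.99), while the other 4 were not. Leaving out any 1 fish kept contig 47770 at 1.00 to 1.25. Beta-2-microglobulin, the small subunit that MHC class I needs at the cell surface, had 20.2, 19.4 and 30.1 CPM (FMC), 54.2, 56.7 and 35.5 CPM (SW1) and 34.3, 50.8 and 58.2 CPM (SW2) in an apart NCBI contig (log2 fold change 1.05, 95% interval 0.45 to 1.66). Of its 13 NCBI contigs only 5 were above 0 and 2 were lower at the unadjusted 0.05 level, and reads of such near-identical copies may be split between them. RGS1, which in mammals brakes chemokine receptor signals in B cells, was apart on the NCBI reference with 9.19 to 15.5 CPM in FMC and 17.1 to 20.3 CPM with seaweed (log2 fold change 0.73, 95% interval 0.20 to 1.26), and was added after its values were seen.

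Other named contigs with all seaweed-fed fish above FMC belonged to varied functions. Calponin-3, an actin-binding protein, had 10, 8 and 11 counts (FMC), 73, 17 and 86 counts (SW1) and 84, 21 and 37 counts (SW2) in contig 31302. The FMC fish were alike, and SW1 fish 2 and SW2 fish 2 were the lowest of the seaweed-fed fish (log2 fold change 2.31, 95% interval 1.23 to 3.38, DESeq2 adjusted p = 0.0285). Cyclin-E2, which drives entry into S phase, differed by 1.77 (SE 0.42) in contig 61859, while its 5 other contigs had a median of 0.06 and the lowest of them, at -0.85, was lower at the unadjusted 0.05 level. Pyruvate dehydrogenase kinase 3, which shuts off the flow of pyruvate into the citric acid cycle, differed by 2.08 (SE 0.50) in contig 59609. Contig 70269 of coiled-coil domain-containing protein 49 and contig 72696 of filamin A-interacting protein 1-like differed by 1.86 (SE 0.43) and 1.79 (SE 0.43). The 55 kDa erythrocyte membrane protein, a scaffold of the red cell membrane, differed by 1.03 (SE 0.25) in contig 14786.

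On the NCBI reference, SNF1-like kinase 2 (SIK2), a kinase of the AMPK family, had 6, 7 and 5 counts (FMC), 21, 14 and 18 counts (SW1) and 11, 14 and 20 counts (SW2), low but apart (log2 fold change 1.36, 95% interval 0.60 to 2.12). CHMP1B, part of the ESCRT-III membrane-scission machinery, differed by 1.49 (SE 0.42), although its other 4 NCBI contigs did not stand apart and its 4 de novo contigs had a median of 0.04. FK506-binding protein 11, a folding enzyme of the secretory pathway, differed by 2.18 (SE 0.62) at 0.418 to 7.81 CPM, the mitochondrial ribosomal protein S16 by 1.78 (SE 0.54), and the small GTPase RERG by 0.71 (SE 0.22). For S16 the estimates were 1.15 in SW1 vs. FMC and 2.41 in SW2 vs. FMC, with SW2 minus SW1 at 1.26 (95% interval 0.05 to 2.48). SW2 fish 2 and 3 were high there, while SW2 fish 1 lay just below the lowest SW1 fish.

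Contigs with all seaweed-fed fish below FMC had smaller differences, with a few exceptions. Contig 38544, described as poly polymerase 14 (the PARP family member 14, linked in mammals to interferon and interleukin 4 signals) and as a pseudogene, had 61, 26 and 19 counts (FMC), 4, 2 and 7 counts (SW1) and 16, 2 and 3 counts (SW2). The seaweed-fed fish did not reach the lowest FMC fish, and the difference was -2.67 (SE 0.50) with an adjusted p of 0.764 in edgeR and 0.0139 in DESeq2. Subunit 7 of the cytochrome b-c1 complex, respiratory complex III, had 65.7, 162 and 55.4 CPM (FMC), 2.68, 35.3 and 21.3 CPM (SW1) and 3.01, 19.1 and 2.01 CPM (SW2) in contig 3215. The chaperonin subunit TCP1 epsilon, which helps to fold actin and tubulin, had 333, 817 and 309 CPM (FMC), 18.9, 203 and 113 CPM (SW1) and 12.9, 121 and 13.5 CPM (SW2) in contig 4093. In both, FMC fish 2 was highest and SW1 fish 1, SW2 fish 1 and SW2 fish 3 were lowest, far under the other seaweed-fed fish. The differences were -2.91 (95% interval -4.34 to -1.48) and -2.72 (95% interval -4.19 to -1.25), and the other 9 contigs of TCP1 epsilon were not apart. For subunit 7 the other 3 de novo contigs lay between 0.002 and 0.096, and its 1 NCBI contig, with few counts, at -0.67.

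ULK1, the kinase that starts autophagy, differed by -1.79 (SE 0.51) in contig 54030 and by -0.69 without FMC fish 2, the highest of the FMC fish. Golgin A3, a protein of the Golgi apparatus, differed by -1.36 (SE 0.41) in contig 7129 and syntaxin-16, which fuses endosome vesicles with the Golgi, by -0.997 (SE 0.30) in contig 40079. Heparan-sulfate 6-O-sulfotransferase 2 differed by -1.35 (SE 0.45) in contig 18832, unconventional myosin-Ie by -1.14 (SE 0.38) in 65239, the headcase homolog by -1.07 (SE 0.33) in 55181 and regulatory subunit 12C of phosphatase 1 by -1.03 (SE 0.28) in 749. The SMN-interacting protein 1, which builds spliceosomal particles, differed by -0.92 (SE 0.25) in contig 40803 and glutathione S-transferase theta-1, a detoxifying enzyme, by -0.77 (SE 0.25) in contig 28023, where the seaweed-fed fish ranged only from 2.27 to 2.7 CPM. The other 4 de novo contigs of this transferase lay between -0.41 and 0.27, and its 4 NCBI contigs all above 0 (0.08 to 0.35).

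On the NCBI reference CYP7B1, which hydroxylates oxysterols on the way to bile acids, had 11.97, 14.7 and 16.7 CPM (FMC), 11.2, 11.7 and 8.96 CPM (SW1) and 3.34, 6.94 and 7.97 CPM (SW2). All seaweed-fed fish were below FMC, the SW2 fish most (log2 fold change -0.84, 95% interval -1.46 to -0.21). The other NCBI contig of that name differed by 0.20 and was not apart, so a lower level of the gene as a whole is not shown. RNA-binding protein 24-B differed by -0.72 (SE 0.25), and by -0.33 without FMC fish 2, while the 5 de novo contigs described as RNA-binding protein 24 had 3 above 0 and a median of 0.29. Tetraspanin-8 differed by -1.05 (SE 0.52), the iron-sulfur subunit of succinate dehydrogenase by -0.64 (SE 0.33) and apolipoprotein B by -0.46 (SE 0.27). The growth brake BTG1, heat shock factor-binding protein 1, carnitine O-acetyltransferase and NAMPT, which makes NAD, were apart with differences of only -0.42, -0.43, -0.21 and -0.18. Neither these nor tetraspanin-8, the succinate dehydrogenase subunit and apolipoprotein B reached the unadjusted 0.05 level in edgeR.

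Hemoglobin contigs went both ways. A hemoglobin beta contig of the NCBI reference had 11, 188 and 26 counts (FMC), 8670, 1506 and 905 counts (SW1) and 1326, 1336 and 905 counts (SW2). FMC fish 2 had the most of the FMC fish, and the lowest seaweed-fed fish was still well above it, while SW1 fish 1 was far above all others. The difference was 4.58 (SE 1.02), with an adjusted p of 1 in edgeR and 0.0179 in DESeq2, and without both FMC fish 2 and SW1 fish 1 it was 6.09 and passed in edgeR (adjusted p = 0.0182). Another contig with the same name had 226, 3234 and 585 counts (FMC), 110, 177 and 201 counts (SW1) and 228, 170 and 160 counts (SW2) and differed by -3.08 (SE 0.64), and hemoglobin beta-1 had 1113, 10166 and 1610 counts (FMC), 127, 168 and 229 counts (SW1) and 1776, 1499 and 390 counts (SW2) and differed by -3.33 (SE 0.67). In these FMC fish 2 was highest of the FMC fish, and without it the differences were -1.26 and -1.56. Hemoglobin genes form families of near-identical copies, so how reads divide between these contigs is uncertain.

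The rest of the erythroid list was lower on average, through FMC fish 2. Hemoglobin alpha-4 had 1699, 25071 and 2759 CPM (FMC), 5947, 3044 and 1441 CPM (SW1) and 2521, 2446 and 1732 CPM (SW2) in contig 893 and differed by -1.82 (SE 0.63), but by 0.32 without FMC fish 2. The erythroid 5-aminolevulinate synthase (ALAS2), the first enzyme of heme synthesis in red cells, differed by -1.44 (SE 0.52) in contig 6973, and by 0.03 without that fish. Of 27 NCBI contigs of the list 25 were below 0, with a median of -1.25 that was 0.11 without FMC fish 2. Of 38 de novo contigs 28 were below 0, with a median of -0.83 that was 0.17 without FMC fish 2. The summed level was 3.3% of the scaled de novo library in FMC fish 2, 0.31% and 0.506% in the other FMC fish and 0.278% to 0.846% in the seaweed-fed fish.

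**Figure D3:**
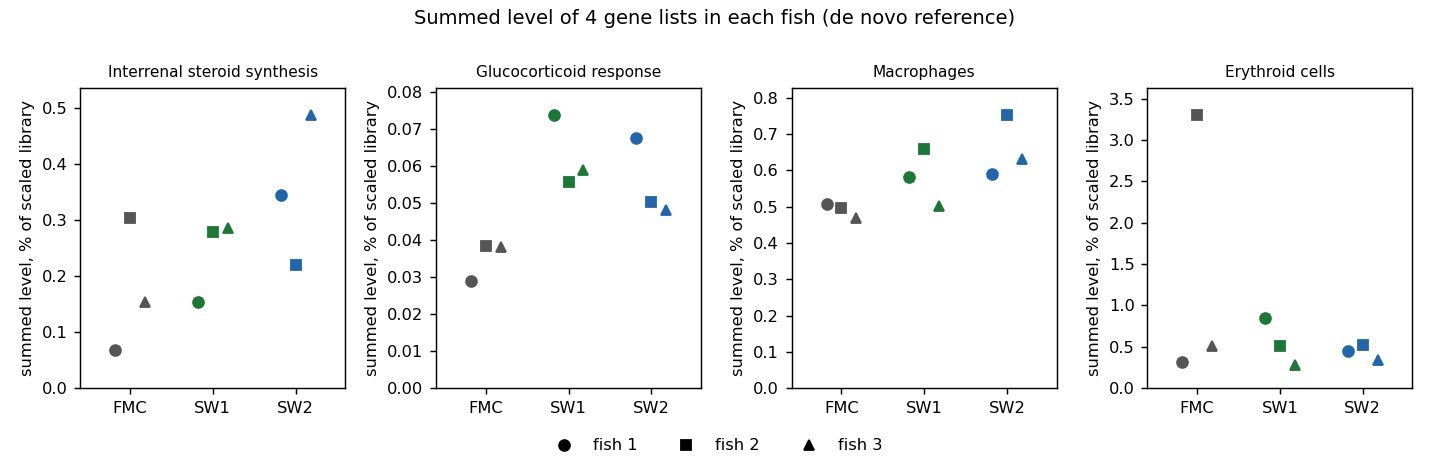
Summed level of 4 gene lists as a percent of the scaled de novo library (y axis, linear, from 0) in each fish, by diet (x axis); symbols mark fish 1, 2 and 3. On this reference, and with its FKBP5 contigs included, the glucocorticoid-response list separates the 6 seaweed-fed fish from the 3 FMC fish, the interrenal and macrophage lists overlap, and FMC fish 2 stands alone in the erythroid list at 3.3%.

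The seaweed diets were then set beside each other. SW1 vs. FMC and SW2 vs. FMC share the 3 FMC fish, so likeness between them is partly built in, and the test of a difference between the seaweeds is SW2 minus SW1. For FKBP5 contig 28368 the differences were 1.77 in SW1 vs. FMC and 2.06 in SW2 vs. FMC, and SW2 minus SW1 was 0.29 (95% interval -0.38 to 0.96). Contig 4922 gave 1.98 in SW1 vs. FMC and 2.31 in SW2 vs. FMC, with SW2 minus SW1 at 0.33 (95% interval -0.44 to 1.097). For cryptochrome-1 the NCBI contig gave 1.51 in SW1 vs. FMC and 1.196 in SW2 vs. FMC, with SW2 minus SW1 at -0.32 (95% interval -1.12 to 0.48). For P450scc it gave 1.73 in SW1 vs. FMC and 2.61 in SW2 vs. FMC, with SW2 minus SW1 at 0.88 (95% interval -0.06 to 1.82). These intervals take in 0 and also differences of about 0.5 or more in size, so the diets are not shown to act alike.

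Other contigs leaned to 1 diet. DDIT4 was 2.65 in SW1 vs. FMC and 1.38 in SW2 vs. FMC, with SW2 minus SW1 at -1.27 (95% interval -2.30 to -0.24). Cyclin-E2 contig 61859 was 2.28 in SW1 vs. FMC and 1.26 in SW2 vs. FMC (SW2 minus SW1 -1.02, 95% interval -1.89 to -0.15). In the opposite direction M130 contig 4422 was 0.46 in SW1 vs. FMC and 1.92 in SW2 vs. FMC (SW2 minus SW1 1.45, 95% interval 0.40 to 2.50), and for macrophage mannose receptor 1 contig 27064 SW2 minus SW1 was 0.99 (95% interval 0.37 to 1.60). Syntaxin-16 was -0.24 in SW1 vs. FMC and -1.75 in SW2 vs. FMC (SW2 minus SW1 -1.51, 95% interval -2.32 to -0.70). Among contigs apart from FMC, 8 of 325 on the NCBI reference (2.46%) and 28 of 1206 on the de novo reference (2.32%) had an unadjusted p under 0.05 for SW2 minus SW1, against 5.63% and 5.8% of all contigs tested. Being apart selects contigs in which the seaweed-fed fish lie together, so these lower shares follow in part from the selection.

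**Figure D4:**
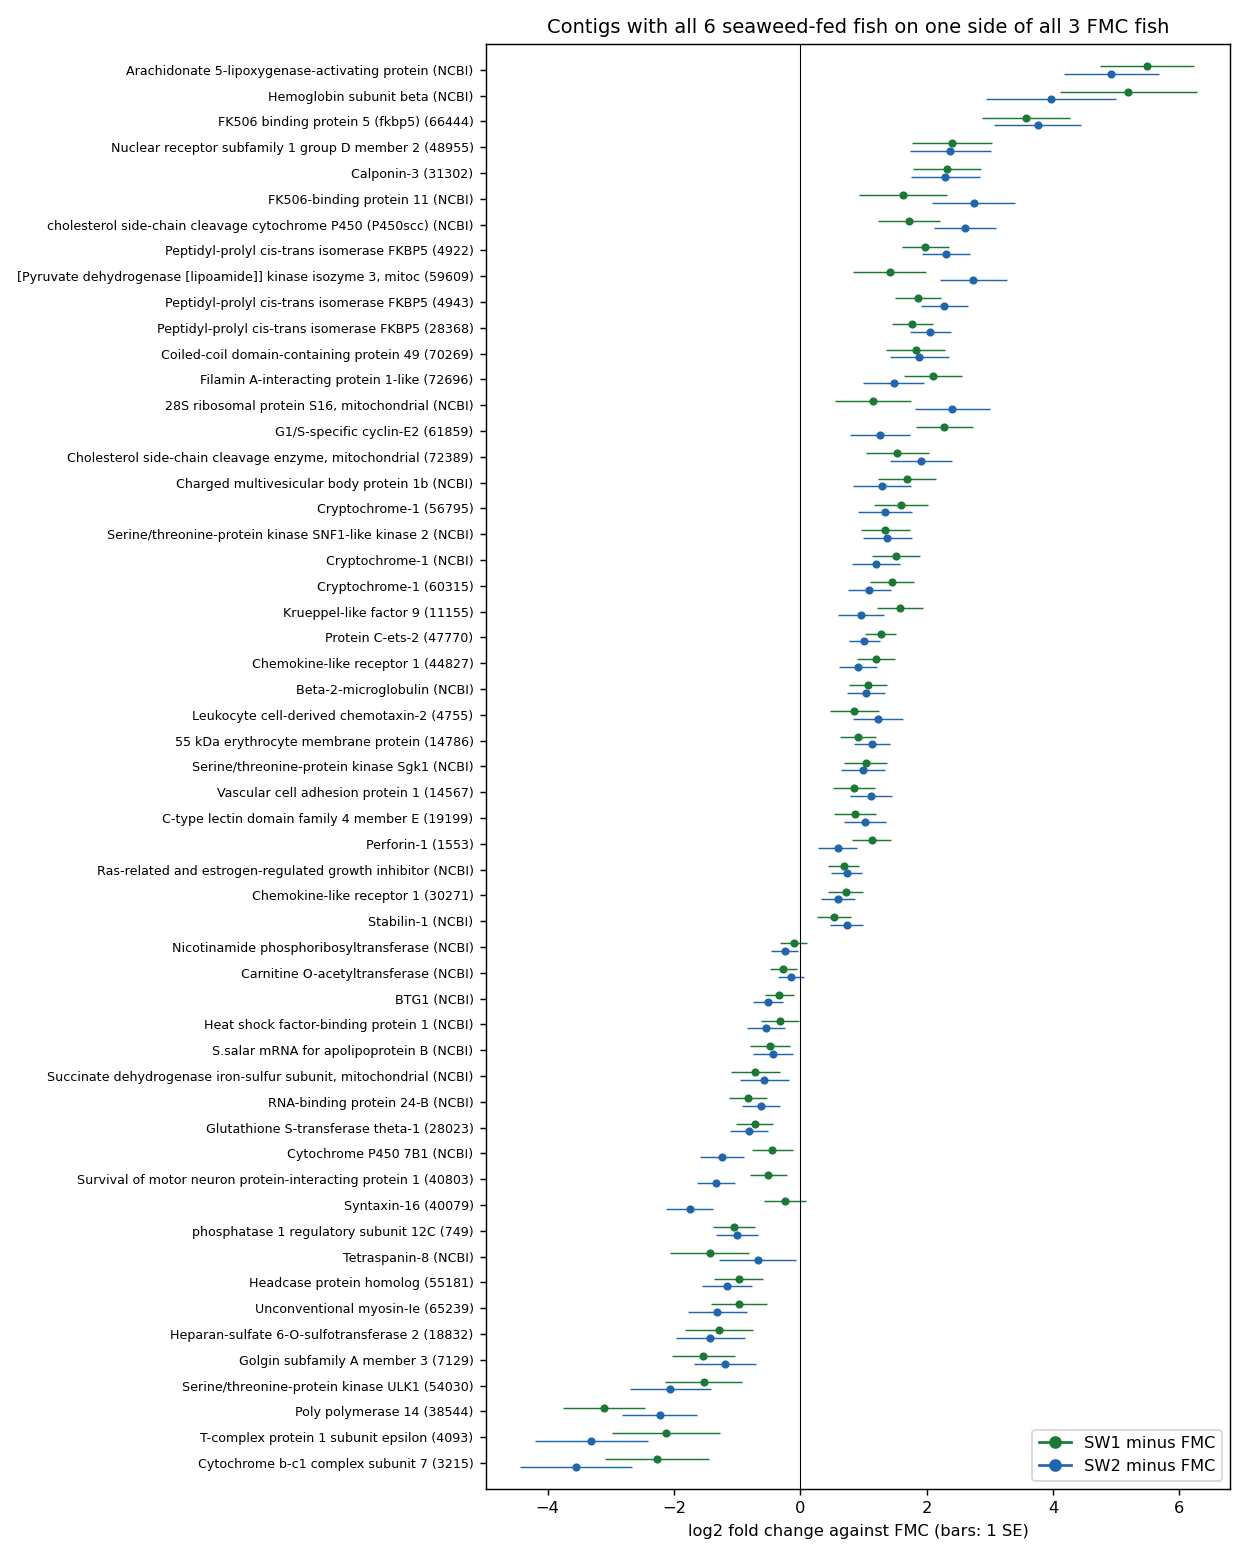
Log2 fold change of SW1 vs. FMC (green) and SW2 vs. FMC (blue) with bars of 1 standard error (x axis). Rows are named contigs in which all 6 seaweed-fed fish lay on the same side of all 3 FMC fish. Contigs without an FMC count and those added after their values were seen are left out. This leaves 21 on the NCBI and 34 on the de novo reference (numbers are de novo contigs). For 36 of the 55 contigs the estimates of the diets differ by no more than the smaller of their standard errors, and syntaxin-16 (-0.24 and -1.75) is among the exceptions. The estimates share the FMC fish and the contigs were chosen for being apart, so this likeness is partly built in.

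DESeq2's calls were also read fish by fish. Of its 16 NCBI calls 8 name a protein and 8 were apart, and of its 21 de novo calls 10 name a protein and 16 were apart. FKBP5 made up 5 of the 10 named de novo calls and C-ets-2 made up 2. The other NCBI calls that name a protein split the seaweed-fed fish. The contig of cytoplasmic actin 1 had 27, 18 and 28 counts in FMC, 1766, 17 and 1486 in SW1 and 1305, 2929 and 28 in SW2, so that 4 seaweed-fed fish were far above FMC and the other 2 were at its level. The contig of CD209 antigen-like protein E, a C-type lectin, had 385, 180 and 325 counts in SW1 fish 2, SW1 fish 3 and SW2 fish 2 and 0 in the other 6 fish. The contig of the complex I subunit NDUFB9 was at 0 in all FMC fish and in SW2 fish 1 and at 10 to 23 in the others, and that of the translocon-associated protein subunit gamma was at 0 in the 3 SW2 fish only. These were named after their values were seen, and whether fish differ there in allele was not tested.

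Most other gene lists stayed near the median of all contigs (0.00 on the NCBI and -0.02 on the de novo reference). Since no contig passed the adjusted threshold in edgeR on either reference, none of the 38 lists could have a member that did. The shares to set beside each de novo list are those of all contigs tested, 47.9% above 0, 1.39% higher and 1.98% lower. On the de novo reference, Toll-like receptors and the NF-kappa-B pathway had 77 of 158 contigs above 0 with 1 higher and 1 lower at the unadjusted 0.05 level, and the interferon response had 68 of 136 above 0 with 3 higher and 4 lower. Acute inflammation had 38 of 53 above 0 and 2 in each direction (median 0.18), complement 26 of 44 above 0 and 2 higher (median 0.16), and neutrophil granules and oxidase 29 of 47 above 0 and 1 higher (median 0.07). B cells and immunoglobulin had 35 of 79 above 0 and 1 in each direction, and T cells 27 of 41 with 2 in each direction (median 0.20). MHC class I did not stay near that median on the NCBI reference. It had 15 of 38 contigs above 0, 4 higher and 8 lower, with a median of -0.82, across allele sequences that share reads. The de novo reference did not show this, with 6 of 16 above 0, 0 higher and 1 lower (median -0.12). MHC class II had 8 of 14 NCBI contigs above 0 with 3 higher and 1 lower, and 2 of 9 de novo contigs above 0 with 0 higher and 0 lower. All NCBI contigs tested had 1.52% higher and 1.78% lower.

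Lists of metabolism and of cell housekeeping showed little, beside 47.9% above 0, 1.39% higher and 1.98% lower among all de novo contigs tested. Glycolysis and hypoxia had 101 of 168 de novo contigs above 0, with 5 higher and 6 lower at the unadjusted 0.05 level. Xenobiotic metabolism and metallothionein had 67 of 118 above 0 with 1 higher and 2 lower, antioxidant enzymes 53 of 100 with 0 higher and 3 lower, and thyroid hormone and iodine, of interest since brown seaweeds are rich in iodine, 6 of 10 with 1 higher and 0 lower (median 0.16). Heat shock and chaperones had 146 of 285 above 0 with 0 higher and 6 lower, DNA replication and cell division 130 of 273 with 1 higher and 6 lower, and ribosomal proteins 118 of 232 with 1 higher and 4 lower.

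**Figure D5:**
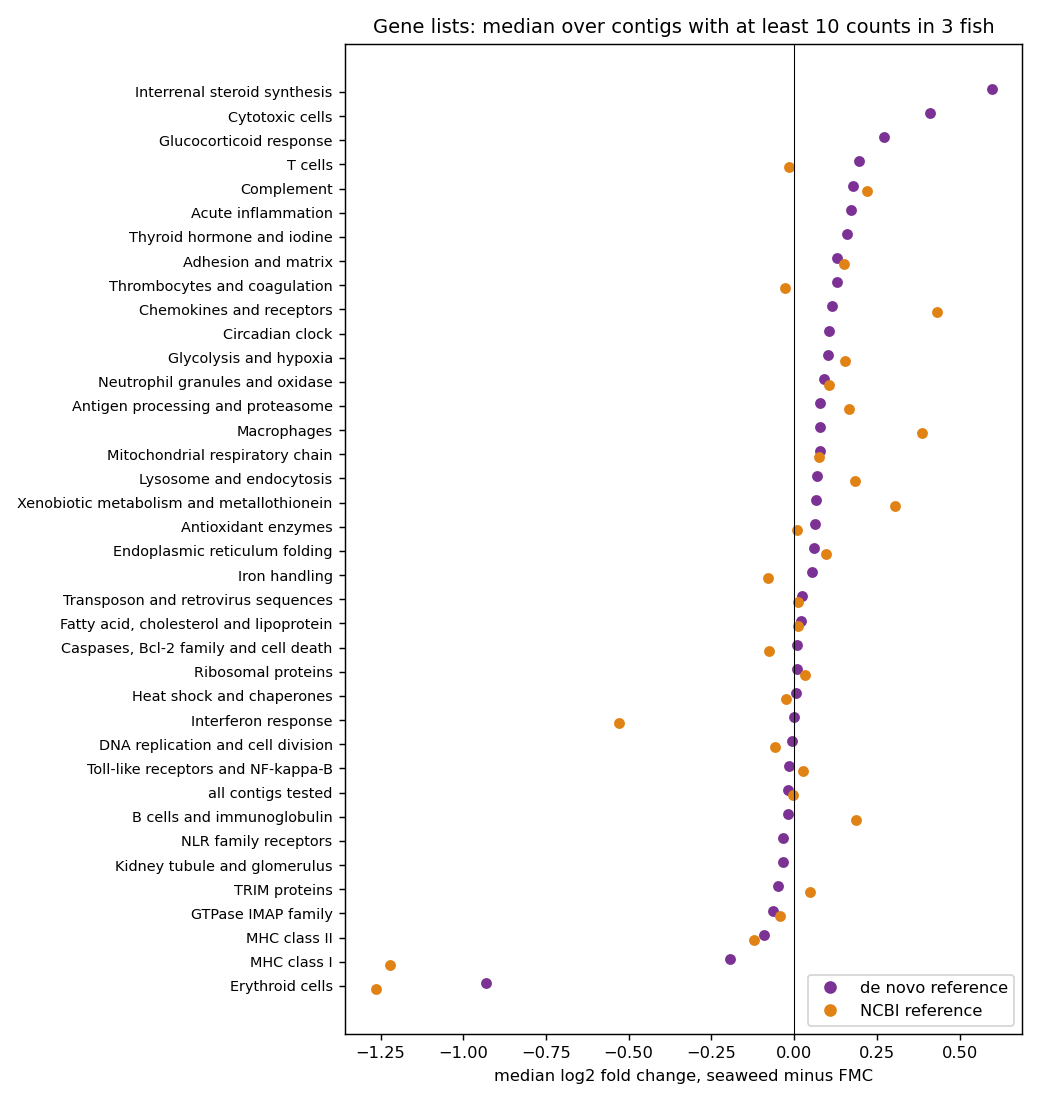
Median log2 fold change, seaweed minus FMC (x axis), of each gene list (rows) over its contigs with at least 10 counts in 3 fish, for the de novo (purple) and the NCBI reference (orange), lists with at least 5 such contigs. Most medians lie near 0, and the erythroid list is lowest at -0.93 (de novo) and -1.26 (NCBI) while the interrenal list (0.60, de novo) is highest on the de novo reference.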

How the data were processed

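Head kidney RNA of 9 Atlantic salmon, 3 per diet, was sequenced by the authors. Per the labels and the study's methods, reads were aligned with TopHat2 2.0.5, secondary alignments were removed with SAMtools 0.1.18, and the deposited counts per contig and fish were made with HTSeq 0.5.3p9, against 48223 NCBI cDNA sequences or 87600 contigs assembled de novo. The authors' tables also hold, for each seaweed diet, baseline means, fold changes and p-values from DESeq, which were not used here. The SW1 and SW2 tables were joined by contig, and FMC counts, identical in both, entered once.

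Contigs whose counts summed to 10 or more were scaled by TMM and tested in edgeR 4.0.16 (R 4.3.3, quasi-likelihood, 3 groups, Benjamini-Hochberg adjustment over all contigs, threshold 0.05). DESeq2 1.42.0, limma 3.58.1 voom, other scalings and filters, a replicate block and leaving out fish were alternatives. Total counts per fish set the precision, and counting intervals cover counting error only. No 2 libraries of the same diet agreed within sampling noise (reduced chi-square 5.38 to 34.4).

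Named per reference were, among contigs apart that name a protein and have at least 10 counts in 3 fish, the 12 with the smallest p in each direction, contigs with 3 counts or fewer in FMC and over 3 in each seaweed-fed fish or the reverse, and the 3 lowest-p members of each of 38 gene lists built from words of the descriptions. The members and lists were chosen with earlier results of these data known, and lists get counts and medians only. No sequence or genome position was used here.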

Additional observations from a re-analysis of the deposited data

Results flagged for a closer look

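In 14 of the 84 contigs examined, 1 of the 6 seaweed-fed fish lay far from the other 5, by its gap to the nearest fish as a share of the range of log2 levels (Dixon's ratio). Chance flags about 1 in 20 groups.

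SW1 fish 1 was high for NR1D2 contig 63914 (213 counts, ratio 0.765) and TSC22D3 contig 7695 (1822 counts, ratio 0.633), and low for M130 contig 4422 (219 counts, ratio 0.633) and for the lower of the hemoglobin beta contigs (110 counts, ratio 0.633). SW1 fish 2 was high for ALOX5AP on the NCBI reference (81 counts, ratio 0.637), CHMP1B (116 counts, ratio 0.632) and chemokine-like receptor 1 contig 44827 (70 counts, ratio 0.629), and low for tetraspanin-8 (1 count, ratio 0.846) and golgin A3 contig 7129 (1 count, ratio 0.699).

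SW2 fish 1 was high for the FKBP5 contigs 4922 (1761 counts, ratio 0.691) and 4943 (550 counts, ratio 0.691). SW2 fish 3 was low for DDIT4 contig 6479 (107 counts, ratio 0.629), ULK1 contig 54030 (2 counts, ratio 0.887) and myosin-Ie contig 65239 (3 counts, ratio 0.668). Low levels in tetraspanin-8, golgin A3, ULK1 and myosin-Ie rest on 1 to 3 counts.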

How the results depend on the processing

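In edgeR, 0 contigs passed on either reference. On the NCBI reference DESeq2 called 16, edgeR with no filter on low counts 1 and edgeR without both FMC fish 2 and SW1 fish 1 also 1, and leaving out each fish in turn gave 0 to 2. On the de novo reference DESeq2 called 21 and voom with quality weights 104 (49 higher, 55 lower), and leaving out each fish gave 0 to 2. The cause was not tested. Voom called 0 on the NCBI reference.

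The number of contigs apart depends on how many fish must be ordered, so fewer fish give more by construction: without both fish it was 1896 on the NCBI and 6944 on the de novo reference, and leaving out each fish gave 428 to 1436 and 1664 to 5293. When only contigs with at least 10 counts in at least 3 fish entered and the libraries were rescaled on them, it was 202 (112 above, 90 below) and 761 (434 and 327). The split of 207 above and 118 below became 166 and 140 with DESeq2 size factors and 129 and 161 with total counts on the NCBI reference, and 664 and 542 became 694 and 533 and 448 and 588 on the de novo reference. Counts summed per protein name, chosen after seeing the data, gave 0 calls among 2619 and 12000 names.

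Of 1512 values of the 84 contigs, 1472 kept their direction and side of the threshold, 30 passed it and 10 turned. The number kept follows largely from the selection. Of the 84 contigs 64 were apart, so leaving out a fish could hardly turn their direction, and none of the 84 passed in the main fit. Those that turned were the glucocorticoid receptor on the NCBI reference (0.11 without FMC fish 2), hemoglobin alpha-4 contig 893 (-2.32 to 0.32 when leaving out each fish, 0.0138 without both fish), ALAS2 contig 6973 (-1.94 to 0.0349, and 0.0023) and de novo ALOX5AP contig 7023 (-0.155 to 0.0763, and 0.16 without both). Same-numbered fish of different diets correlated at -0.32 to 0.18, and differently numbered ones at -0.38 to 0.48. With 3 fish per diet, this cannot show whether the numbers mark a pairing. With the replicate block edgeR called 0 contigs on either reference, with 282 higher and 281 lower at the unadjusted 0.05 level on the NCBI and 1039 and 1078 on the de novo reference. Depth limits contigs under about 10 counts per fish most.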

Other observations

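Lists not described above had few members past an unadjusted p of 0.05 on the de novo reference. All contigs tested there had 47.9% above 0, 1.39% higher, 1.98% lower and 0.758% apart above. Lysosome and endocytosis had 116 of 181 contigs above 0, 6 higher and 3 lower, and 4 apart, all above (median 0.07). Thrombocytes and coagulation had 36 of 66 above 0, 3 higher and 2 lower, and 3 apart, all above (median 0.03). The respiratory chain had 153 contigs above and 92 below 0 with 2 higher and 1 lower, and antigen processing and the proteasome 138 of 210 with 0 higher and 3 lower. Iron handling had 36 of 73 above 0 with 2 higher and 3 lower, and fatty acid, cholesterol and lipoprotein 89 of 155 with 2 higher and 0 lower.

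Families of innate immune proteins in fish gave as few, beside the same shares of all contigs tested. The TRIM proteins had 62 of 137 contigs above 0 with 0 higher and 3 lower, NLR family receptors 26 of 54 with 1 higher and 0 lower, and GTPases of the IMAP family 14 of 31 with 0 higher and 1 lower. Transposon and retrovirus sequences had 73 of 135 above 0 with 2 higher and 5 lower, and 3 apart, all above. All 4 contigs of chromaffin cells were above 0 (median 1.21) at levels near 0.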
